A study of Mus musculus with 7 samples.

Results

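The core genes of the Hippo pathway were followed in mouse hepatocytes given extra miR-709, through 10 genes chosen by their symbols, of which 9 were measured among 19938 genes. The pathway is a kinase cascade that restrains growth of the liver. The kinases MST1 and MST2, encoded by *Stk4* and *Stk3*, work with the scaffold SAV1 and switch on the kinases LATS1 and LATS2, which need a MOB1 adaptor. Active LATS kinases phosphorylate the coactivators YAP and TAZ, encoded by *Yap1* and *Wwtr1*, and keep them out of the nucleus, where they would otherwise bind TEAD factors and drive genes of growth, matrix and cytoskeleton. AJUBA carries LIM domains, sits at cell junctions, and binds and restrains the LATS kinases. Mouse hepatocytes with too little Hippo signalling overgrow, and the pathway is known for its control of liver size.

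These genes were followed on arrays of primary hepatocytes from male C57BL/6J mice, harvested 24 h after transfection with 1 µg of a miR-709 mimic (4 arrays, replicates A to D) or of Cel-239b, a worm miRNA that served as control (3 arrays, replicates B to D). The question was which mRNAs change when the level of miR-709 is raised. The hepatocytes were separated from other liver cells on a Percoll gradient, and all cultures received a miRNA and the same transfection reagent, so there is no untransfected culture to compare with. Whether replicates came from different mice or isolations is not stated, and the p-values therefore measure the spread between these arrays, which may be technical. The 10 genes of the set (*Ajuba*, *Lats1*, *Lats2*, *Stk3*, *Stk4*, *Sav1*, *Yap1*, *Wwtr1*, *Mob1b* and *Mob3a*) were chosen by symbol from the pathway, with their values on these arrays known. A probe set with 1 gene symbol was at hand for 9 of the 10, with 1 probe set each, among 19938 genes tested. *Stk3* was not analysed here. Because the values of miR-709 against Cel-239b were known when the genes were picked, the changes of these 9 genes are given as a description, without p-values.

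Values are log2 signals, so a step of 1 is a doubling. The arrays had medians of 5.04 to 5.07 over 28853 probe sets. Hepatocyte markers were bright, with mean signals of 8.08 to 13.47 for 11 genes, led by *Alb*, the albumin gene. Endothelial markers reached 5.65 at most. A mean signal over 6 was reached by 1 of 12 Kupffer cell and leukocyte markers, *Cd68*, by 3 of 9 cholangiocyte markers and by 4 of 12 stellate cell and myofibroblast markers. Interferon-stimulated genes set replicates C and D of miR-709 apart. Averaged over 16 such genes and counted from the mean of the Cel-239b arrays, the miR-709 arrays A to D stood at -0.13, -0.07, 0.90 and 0.90, and the Cel-239b arrays B to D at -0.18, -0.05 and 0.23.

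The letters around the start of the members that moved furthest are shown first, as a description. The sequences are RefSeq promoter windows (build GRCm38.p6) of 250 bases before to 50 bases after the transcript start, read along the gene, for *Ajuba* (chr14:54577612-54577911, minus strand), *Lats2* (first start, chr14:57746074-57746373, minus strand) and *Mob3a* (chr10:80701771-80702070, minus strand). Capitals mark the TEAD motif GGAATG or its reverse complement CATTCC.
Ajuba: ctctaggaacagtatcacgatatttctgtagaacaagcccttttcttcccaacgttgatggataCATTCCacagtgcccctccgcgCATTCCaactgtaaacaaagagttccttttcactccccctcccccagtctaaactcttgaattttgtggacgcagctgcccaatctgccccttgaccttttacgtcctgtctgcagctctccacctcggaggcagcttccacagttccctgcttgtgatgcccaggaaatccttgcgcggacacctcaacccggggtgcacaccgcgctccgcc
Lats2: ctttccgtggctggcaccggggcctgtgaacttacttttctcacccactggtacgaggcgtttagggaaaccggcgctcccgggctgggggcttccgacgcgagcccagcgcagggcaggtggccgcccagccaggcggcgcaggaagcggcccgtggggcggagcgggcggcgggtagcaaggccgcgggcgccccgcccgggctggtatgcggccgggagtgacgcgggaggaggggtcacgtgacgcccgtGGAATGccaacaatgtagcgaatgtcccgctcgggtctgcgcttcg
Mob3a: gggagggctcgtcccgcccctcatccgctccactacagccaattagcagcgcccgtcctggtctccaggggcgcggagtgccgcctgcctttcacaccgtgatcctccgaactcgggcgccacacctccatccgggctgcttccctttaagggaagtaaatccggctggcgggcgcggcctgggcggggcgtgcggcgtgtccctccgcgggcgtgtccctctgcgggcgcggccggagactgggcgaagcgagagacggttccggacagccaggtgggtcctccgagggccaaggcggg

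The window of *Ajuba* held the TEAD motif at 2 places, beginning 186 and 164 bases before the start. *Lats2* held it once, from base 5 of the transcript, and its other RefSeq start (chr14:57734369-57734668) had no match. *Mob3a* had none. Of the 9 genes, 5 had a match, the others being *Yap1* (141 bases before the start), *Wwtr1* (136 and 170 bases before its 2 RefSeq starts, which are the same letters) and *Sav1* (106 bases before). These 3 matches are printed with 12 bases on each side to show that their flanks differ.
Yap1: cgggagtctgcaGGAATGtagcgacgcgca
Wwtr1: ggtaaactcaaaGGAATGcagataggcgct
Sav1: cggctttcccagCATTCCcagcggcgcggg

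Both strands were searched and no match overlapped another. The motif was found in 14.7% of all 32851 promoter windows and, counted by gene, in 15.1% of the 15614 tested genes that had a window. The CArG box, the site of serum response factor (CC, 6 bases of A or T, then GG), was in none of the 9 genes and in 1.63% of all windows. GC content was 54.0% in the window of *Ajuba*, 71.7% at the first start of *Lats2*, 71.3% for *Mob3a*, and 61.7% to 78.3% for the other 6 genes, against a median of 52.7% over all windows. A match is a description of letters and shows neither a bound site nor a cause.

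**Figure D1:**
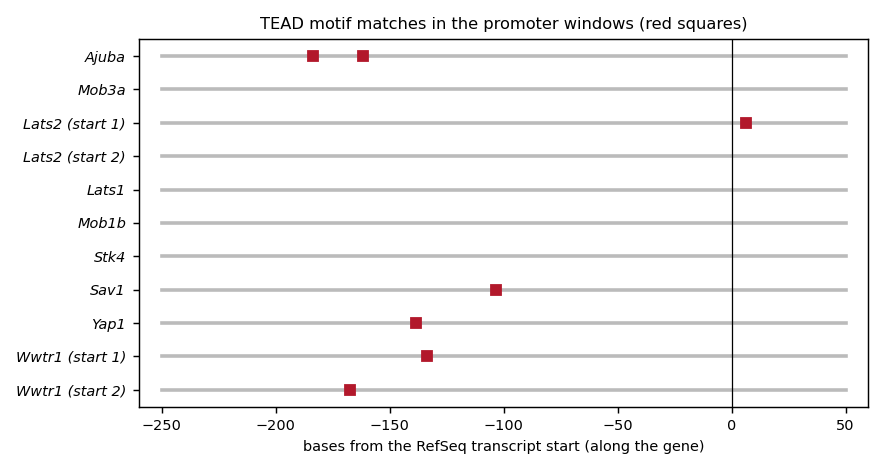
Promoter windows of the 9 genes along the x axis, in bases from the RefSeq transcript start (vertical line), with 1 row per start. Red squares are TEAD motif matches, with 2 in *Ajuba*, 1 at the first start of *Lats2*, 1 each in *Sav1* and *Yap1*, 1 at each start of *Wwtr1*, and none in *Mob3a*, *Lats1*, *Mob1b* or *Stk4*.

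In hepatocytes treated with miR-709, *Ajuba* and *Mob3a* were lower by about the same amount, *Lats2* was higher, and the kinase *Stk4*, the scaffold *Sav1*, the kinase *Lats1*, the adaptor *Mob1b* and the coactivators *Yap1* and *Wwtr1* differed by at most 0.15 on the log2 scale. In the limma fit over all genes, 2 of the 9 were past the threshold (adjusted p under 0.05) on the lower side, where 1.47% of all genes were, and 1 was past it on the higher side, where 1.81% were. The median log2 fold change of the 9 genes was -0.09 and that of all genes was 0.01. The arrays of the treatments did not overlap for 3 genes that were lower (*Ajuba*, *Mob3a* and *Yap1*; 4.91% of all genes) and for 2 that were higher (*Lats2* and *Mob1b*; 7.44% of all genes). The genes were picked with these values in view, so nothing is read from their shares.

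*Ajuba* (probe set 10419790, chromosome 14), whose product restrains LATS kinases at junctions, had log2 signals of 9.14, 9.18, 8.98 and 9.14 on miR-709 arrays A to D, against 10.04, 10.15 and 10.09 on Cel-239b arrays B to D. The means were 9.11 ± 0.09 with miR-709 (SD, n = 4) and 10.09 ± 0.06 with Cel-239b (SD, n = 3), and every miR-709 array lay at least 0.86 below every Cel-239b array. The log2 fold change was -0.98 (standard error 0.07, 95% interval -1.13 to -0.83), or 1.98-fold lower. A change of at most this size was seen in 99.8% of all genes tested. *Ajuba* and *Mob3a* were the only genes of the set with a change above 1.5-fold.

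*Mob3a* (probe set 10370946, chromosome 10) encodes a MOB3 protein, of a family that in human cells binds MST1 rather than the LATS kinases. It had 8.54, 8.47, 8.24 and 8.17 on miR-709 arrays A to D, against 9.18, 9.54 and 9.36 on Cel-239b arrays B to D. The treatments were separated by 0.64, although the arrays scattered more for this gene than for any other member. Its residual SD was 0.179, and 90.2% of all genes had a residual SD of at most that value. Its log2 fold change was -1.0 (standard error 0.11, 95% interval -1.26 to -0.75), or 2.01-fold lower. The miR-709 arrays C and D, which were also high in interferon genes, had the lowest values, and with A and B alone the change was -0.85. For *Ajuba* it was -0.93 with A and B alone. The part of the interferon genes in these values was not tested.

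*Lats2* (probe set 10420413, chromosome 14), a LATS kinase whose gene is also a target of YAP and TEAD, was the member that was higher. It had 7.63, 7.81, 7.61 and 7.75 on miR-709 arrays A to D, against 7.25, 7.08 and 7.18 on Cel-239b arrays B to D. The lowest miR-709 array was 0.36 above the highest Cel-239b array. The log2 fold change was 0.53 (standard error 0.07, 95% interval 0.37 to 0.69), or 1.44-fold higher. With miR-709 arrays A and B alone it was 0.55 but no longer past the threshold. *Lats1* (probe set 10361660, chromosome 10), the other LATS kinase, had 9.01, 8.91, 8.97 and 8.97 with miR-709, against 9.17, 9.04 and 8.94 with Cel-239b. Its arrays overlapped, and its log2 fold change was -0.09 (95% interval -0.24 to 0.07).

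Upstream of LATS, *Stk4* (probe set 10478447, chromosome 2), the MST1 kinase gene, was the steadiest member. It had 8.50, 8.49, 8.51 and 8.49 on miR-709 arrays A to D, against 8.52, 8.49 and 8.54 on Cel-239b arrays B to D. A residual SD of at most its 0.0176 was found in 0.426% of all genes tested. The log2 fold change was -0.02 (95% interval -0.13 to 0.10), which leaves room for a change of 0.912-fold to 1.07-fold. *Sav1* (probe set 10400795, chromosome 12), the scaffold that brings MST and LATS kinases together, had 8.10, 8.22, 7.92 and 8.15 with miR-709, against 8.30, 8.23 and 8.15 with Cel-239b. Its treatments overlapped and miR-709 array C was the lowest (log2 fold change -0.13, 95% interval -0.31 to 0.05). *Mob1b* (probe set 10523001, chromosome 5), an adaptor that activates LATS kinases, had 8.42, 8.28, 8.35 and 8.35 with miR-709, against 8.27, 8.23 and 8.22 with Cel-239b. The treatments were apart by only 0.01, which is the rounding of the deposited values, and the log2 fold change was 0.11 (95% interval -0.02 to 0.24).

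Of the coactivators, *Yap1* (probe set 10590808, chromosome 9) had 8.65, 8.68, 8.63 and 8.63 on miR-709 arrays A to D, against 8.86, 8.82 and 8.72 on Cel-239b arrays B to D. The miR-709 arrays were all lower, by a gap of 0.04. The log2 fold change was -0.15 (standard error 0.06, 95% interval -0.28 to -0.02), or 1.11-fold lower, and it was not past the threshold over all genes. *Wwtr1* (probe set 10498284, chromosome 3), which encodes TAZ, had 8.59, 8.50, 8.32 and 8.48 with miR-709, against 8.42, 8.49 and 8.40 with Cel-239b. Its miR-709 arrays spanned the whole range of its Cel-239b arrays (log2 fold change 0.04, 95% interval -0.13 to 0.20).

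**Figure D2:**
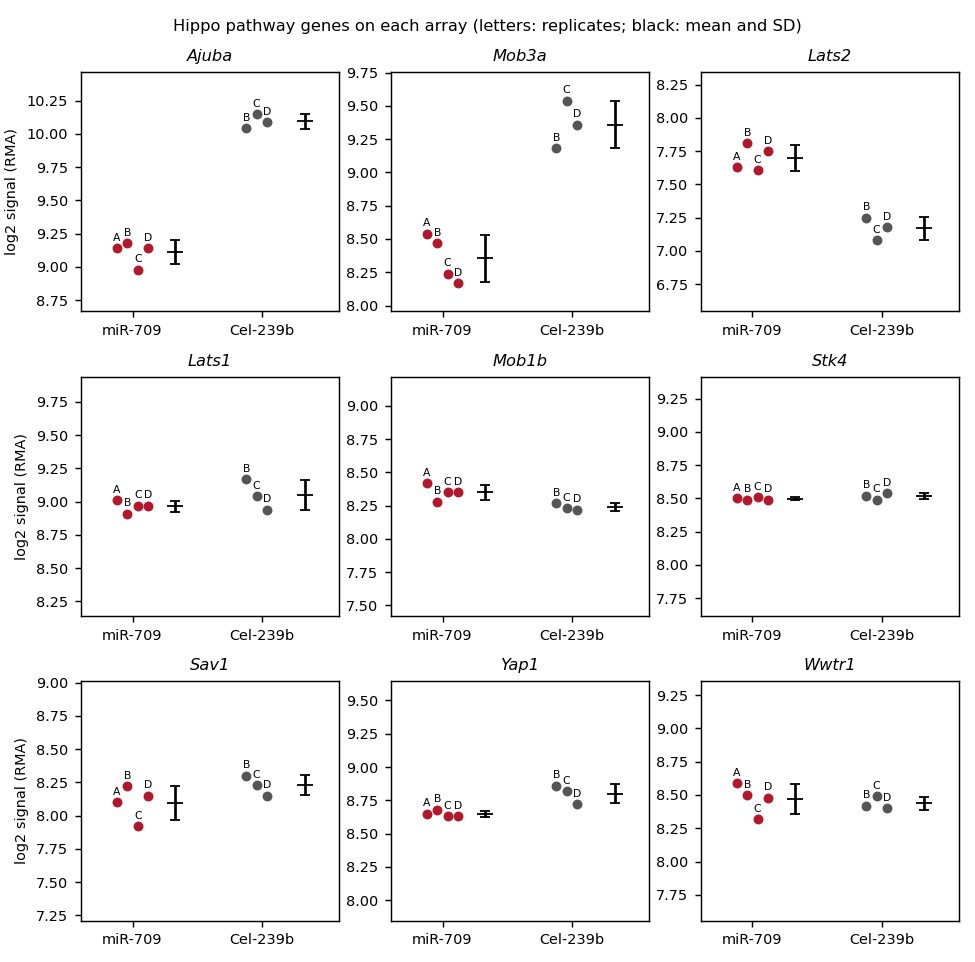
The y axis is the log2 signal (RMA) of 9 Hippo pathway genes, with 1 point per array, for hepatocytes given miR-709 (red, replicates A to D) or Cel-239b (grey, replicates B to D), with the mean and SD in black; every panel spans the same height but has its own origin, which is not 0. *Ajuba* and *Mob3a* sit about 1 log2 unit lower with miR-709 and *Lats2* about 0.5 higher, while *Stk4* stays between 8.49 and 8.54 on all 7 arrays.

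Close relatives of *Ajuba*, *Mob3a* and *Lats2* were measured on the same arrays. Of 6 other genes of the Ajuba and zyxin family, junction and focal adhesion proteins with LIM domains, limma placed 0 past the threshold, with 1 at an unadjusted p under 0.05, and 0 passed by the methods' t-test, a plain equal-variance test on the same values with the same adjustment. *Limd1*, the nearest relative of *Ajuba* and like it an inhibitor of LATS kinases, averaged 8.14 ± 0.03 with miR-709 (SD, n = 4) and 8.14 ± 0.06 with Cel-239b (SD, n = 3). Its log2 fold change had a 95% interval of -0.13 to 0.12 (adjusted p = 0.994 from limma). *Wtip*, the remaining member of the Ajuba branch, had a log2 fold change of -0.13 (adjusted p = 0.528 from limma). The largest change of the family was that of *Lpp*, an adhesion protein, at -0.35 (with a standard error of 0.16 and adjusted p = 0.363 in limma). Its 3 Cel-239b arrays were 11.26, 10.78 and 10.52, so that the spread of the controls was larger than the difference. The value of *Lpp* was -0.14 without Cel-239b replicate B, -0.19 with miR-709 arrays A and B alone, and -0.61 for the mean of its probe sets. *Fblim1*, a filamin-binding LIM protein named after its values were seen, came next at -0.34 (adjusted p = 0.151 in limma), with 7.73, 7.59, 7.26 and 7.45 on miR-709 arrays A to D, against 7.90, 7.75 and 7.88 on Cel-239b arrays B to D. Its treatments did not overlap, by a gap of 0.02.

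Among the MOB genes, *Mob3b* and *Mob3c* were named after their values were seen. *Mob3b* had a log2 fold change of -0.01 (95% interval -0.18 to 0.15) and *Mob3c* one of 0.02 (95% interval -0.15 to 0.20). *Mob1a*, which encodes the other MOB1 adaptor, averaged 7.6 ± 0.06 with miR-709 and 7.66 ± 0.07 with Cel-239b (log2 fold change -0.06, adjusted p = 0.716 from limma). The NDR kinases *Stk38* and *Stk38l*, the nearest relatives of the LATS kinases, had log2 fold changes of 0.07 (adjusted p = 0.612 from limma) and 0.10 (adjusted p = 0.478 from limma). A test of the difference between relatives was not run, since each compares a gene chosen for its change with one that was not.

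**Figure D3:**
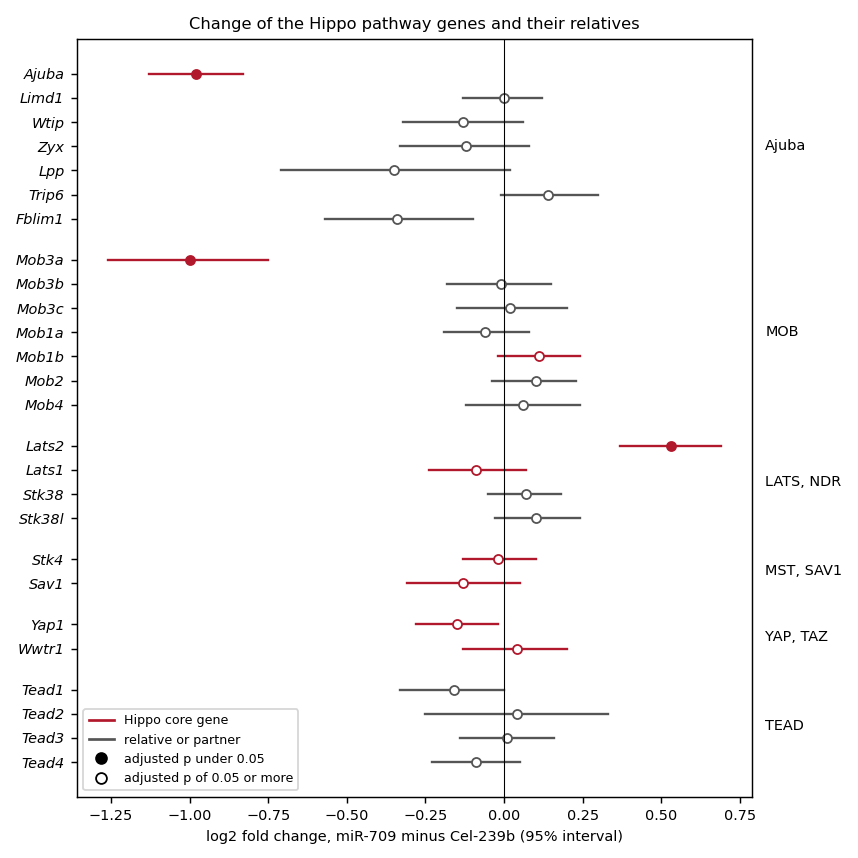
Log2 fold change, miR-709 minus Cel-239b, with its 95% interval on the x axis, for the 9 Hippo genes (red) and their relatives and partners (grey), grouped by family; filled points had an adjusted p under 0.05 from limma over all genes. *Ajuba*, *Mob3a* and *Lats2*, chosen with these values known, have filled points, and their relatives *Limd1*, *Mob3b* and *Lats1* have open points.

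The TEAD factors carry YAP and TAZ to DNA, and the VGLL proteins compete for them. Of 8 TEAD and VGLL genes, limma placed 0 past the threshold, with 0 at an unadjusted p under 0.05 and 0 by the methods' t-test. With 3.28% of all genes tested past it in limma, so short a list cannot show an absence of change. *Tead1* had 9.44, 9.44, 9.44 and 9.49 on miR-709 arrays A to D, against 9.79, 9.54 and 9.52 on Cel-239b arrays B to D (a log2 fold change of -0.16 with a standard error of 0.07, and adjusted p = 0.340 in limma). Its treatments did not overlap, although the gap was only 0.03 and 1 Cel-239b array lay above the others. For the mean of its probe sets the log2 fold change of *Tead1* was -0.26 (adjusted p = 0.115 in limma). *Tead2* (0.04), *Tead3* (0.01) and *Tead4* (-0.09) differed by less than 0.1, and a mean signal over 6 was reached by only 3 of the 8 genes, so a change of the dim ones could be missed.

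The wider pathway was covered by 5 lists of 79 measured genes that hold none of the 9. Of these 79, 1 fell and 2 rose, or 3.80% in all, against 3.28% of all genes tested. Among 28 upstream inputs and scaffolds of LATS and MOB, *Rassf3*, a RASSF protein that can bind MST kinases, was the gene that fell. It had 7.63, 7.53, 7.59 and 7.57 on miR-709 arrays A to D, against 7.99, 8.0 and 7.89 on Cel-239b arrays B to D. The treatments did not overlap, and the log2 fold change was -0.38 (standard error 0.06) at an adjusted p = 0.00698 in limma. With miR-709 arrays A and B alone *Rassf3* kept its log2 fold change of -0.38 at an adjusted p = 0.0964. Among 21 genes of the MAP4K and TAO kinases, which can activate LATS alongside MST, and of the STRIPAK phosphatase complex, which opposes MST, the genes that rose were *Ppp2r1a* and *Taok3*. *Ppp2r1a*, a scaffold subunit of protein phosphatase 2A and thus of many complexes besides STRIPAK, averaged 10.95 ± 0.02 with miR-709 (SD, n = 4) and 10.63 ± 0.08 with Cel-239b (SD, n = 3), a log2 fold change of 0.32 (adjusted p = 0.0149 from limma). *Taok3*, a TAO kinase, averaged 7.63 ± 0.07 with miR-709 and 7.30 ± 0.12 with Cel-239b, a log2 fold change of 0.34 (adjusted p = 0.0365 from limma). *Taok3* lost its call whichever of the 7 arrays was left out (adjusted p = 0.0503 to 0.118). *Ppp2r1a* lost it without miR-709 replicate D (0.0519) or Cel-239b replicate B (0.0544) or C (0.0587). With miR-709 arrays A and B alone neither passed, with *Taok3* at 0.37 (adjusted p = 0.185 in limma) and *Ppp2r1a* at 0.33 (adjusted p = 0.12 in limma).

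Of 16 genes that hold YAP in the cytoplasm or turn it over (14-3-3 proteins, casein kinase 1, ubiquitin ligases and catenins), limma placed 0 past the threshold, with 2 at an unadjusted p under 0.05 and 0 by the methods' t-test. All 16 were bright, with mean signals of 6.94 to 12.15, and their log2 fold changes ran from -0.15 to 0.15. The largest was that of *Nedd4*, a ubiquitin ligase (0.15, with a standard error of 0.06 and adjusted p = 0.219 in limma).

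Of 22 target genes, a list that holds *Lats2* itself, 2 fell and 2 were higher past the threshold (*Lats2* and *Nt5e*), and the median log2 fold change was 0.01. The share past the threshold was 18.2%, against 3.28% of all genes tested, in a list that was written with earlier results known. The treatments did not overlap for 6 targets that were lower, against 4.91% of all genes tested, and for 2 that were higher, against 7.44%. An unadjusted p under 0.05 in limma was found for 10 of the 22 targets and for 2987 of the 19938 genes tested. Among those that missed the threshold, *Igfbp3*, a binding protein of insulin-like growth factors, had a log2 fold change of -0.59 (adjusted p = 0.0699 in limma), and *Ccn2*, a matricellular protein related to *Ccn1*, one of -0.32 (adjusted p = 0.105 in limma), both named after their values were seen. *Ankrd1*, a muscle ankyrin repeat protein often used as a readout of YAP, had 8.80, 8.69, 8.42 and 8.49 on miR-709 arrays A to D, against 9.46, 9.24 and 9.42 on Cel-239b arrays B to D (log2 fold change -0.77 ± 0.10 SE, with adjusted p = 0.00321 in limma). *Ccn1*, a matricellular protein, fell by 0.29 on the log2 scale (± 0.06 SE, adjusted p = 0.0291 in limma). *Nt5e*, a nucleotidase of the cell surface, rose by 0.51 on that scale (± 0.08 SE, adjusted p = 0.00725 in limma). *Ankrd1* was lowest on arrays C and D. With miR-709 arrays A and B alone neither *Ankrd1* (-0.63, adjusted p = 0.0521 in limma) nor *Ccn1* (-0.25, adjusted p = 0.208 in limma) passed. Over all genes that setting called 92 lower and 76 higher, against 293 and 361 with every array. *Ccn1* also missed the threshold without miR-709 replicate B (0.0763), C (0.0839) or D (0.0873), or without Cel-239b replicate B (0.0666), C (0.111) or D (0.0538).

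**Figure D4:**
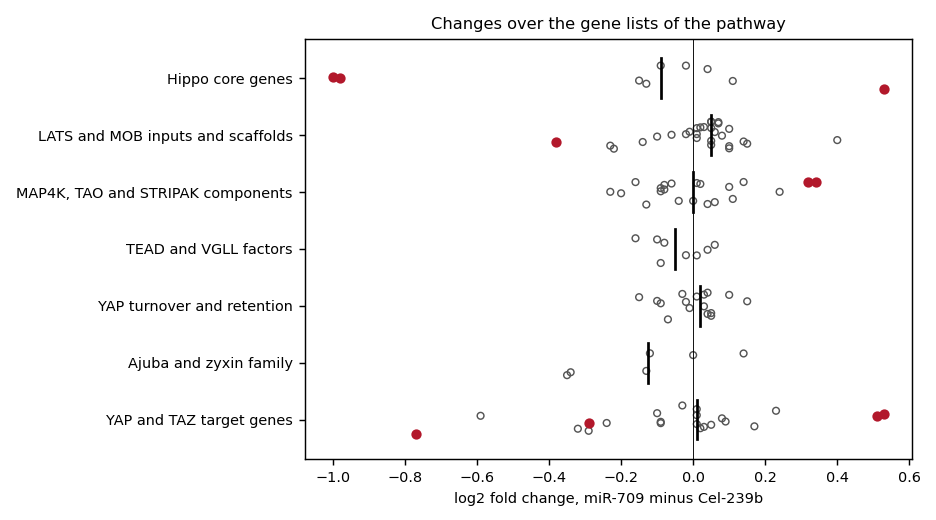
Log2 fold change, miR-709 minus Cel-239b, on the x axis for each measured gene (circles) of the Hippo core set, 5 lists of other pathway genes and the YAP and TAZ targets; filled circles had an adjusted p under 0.05 from limma, black bars are medians, and circles are spread in height only to keep them apart. Of the 79 other pathway genes 3 are filled, and the targets have 2 filled on each side.

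Markers of 2 other cell types differed between treatments on the same arrays, in 3 genes of one type and 1 of the other. The mean log2 signal of 12 stellate cell and myofibroblast markers was 5.48 to 5.59 on miR-709 arrays and 5.77 to 5.82 on Cel-239b arrays, and 3 of the 12 fell (*Acta2*, *Tagln* and *Vim*). The median log2 fold change of the 12 was -0.05, and the other 9 had overlapping arrays, among them the stellate cell markers *Des* (0.10), *Lrat* (-0.01) and *Pdgfrb* (-0.03). The mean of 9 cholangiocyte markers was 5.97 to 6.25 with miR-709 and 6.30 to 6.35 with Cel-239b. Of the 9, *Krt19* fell and 8 were not past the threshold. The median log2 fold change of the 9 was -0.08, with 3 above 0, and *Cldn4*, the brightest, was at -0.04. *Krt7* (-0.29) and *Sox9* (-0.3) were also lower, with overlapping arrays. An unadjusted p under 0.05 in limma was found for 3 of the 9 and for 2987 of the 19938 genes tested. *Krt19* had 8.97, 8.73, 7.91 and 7.79 on miR-709 arrays A to D, against 9.71, 9.50 and 9.53 on Cel-239b arrays B to D. The means overlapped for 10 endothelial markers, at 4.69 to 4.77 with miR-709 and 4.66 to 4.75 with Cel-239b, and for 12 Kupffer cell and leukocyte markers, at 4.40 to 4.48 with miR-709 and 4.40 to 4.47 with Cel-239b. Limma placed 0 of these 22 past the threshold, with 1 endothelial marker at an unadjusted p under 0.05 and 0 past it by the methods' t-test. With 3.28% of all genes tested past it in limma, 0 of 22 does not show an absence of change. The mean of 11 hepatocyte markers was 11.38 to 11.52 with miR-709 and 11.17 to 11.28 with Cel-239b, and *Cps1*, *Tat* and *Hnf4a* rose. The other 8 were not past the threshold. The median log2 fold change of the 11 was 0.07, with 9 above 0, while *Alb* was at -0.03 and *Apob* at -0.18. *Fga* was at 0.43 and *Cyp2e1* at 0.25. The treatments did not overlap for 5 of the 11, all higher, against 7.44% of all genes tested. The share past the threshold was 27.3% of hepatocyte, 25.0% of stellate cell and 11.1% of cholangiocyte markers, against 3.28% of all genes tested. The choice of the markers named here was made with their values in view. The dimmest markers of these lists were *Lum* among the stellate cell genes, with a mean signal of 2.67, and *Cftr* among the cholangiocyte genes, with 2.79. With Cel-239b *Vim* averaged 12.39 and *Krt19* 9.58, while *Des* (4.06), *Lrat* (3.85) and *Pdgfrb* (4.08) were dim. The paper lists *Acta2*, *Tagln* and *Krt19* as lowered in hepatocytes given miR-709, from the same arrays. In such bulk samples fewer cells of a type, less RNA per cell and a change within the hepatocytes cannot be told apart. The part of other cells in the values of *Ajuba*, *Mob3a* and *Lats2* was not tested.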

How the data were processed

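RNA of 7 cultures was measured on Affymetrix Mouse Gene 1.0 ST arrays, 1 array each. The authors deposited log2 values for each probe set, rounded to 0.01, after RMA, which subtracts background, equalizes the distributions of the arrays and summarizes probes. The submitters' notes name Partek and the version is not given in the sources used here. Raw scans were not used. Of 28853 probe sets, 21789 had 1 symbol, 1621 several and 5443 none. For 999 genes with several, the brightest was kept. The study's methods compare log2 signals by treatment without a block, and limma (3.58.1 in R 4.3.3) was fitted in the same form to all 19938 genes, 2-sided, with Benjamini-Hochberg adjustment over all of them. Array number limits the precision, with a median standard error of 0.0758. The fit was tested on simulated data. The Hippo genes and all lists were chosen with earlier results of these data known. Named genes are the 9 measured members, up to 4 genes past the threshold of each pathway list (otherwise the one with the largest change), the relatives and the TEAD genes. *Mob3b*, *Mob3c*, *Fblim1*, *Igfbp3*, *Ccn2*, *Strn*, *Frmd6* and single cell markers were named after their values were seen. No paralogue or 3' end was compared by sequence, and miR-709 itself is only named. Same-letter arrays did not deviate together, so the main fit did not pair the arrays by letter. Alternatives were another variance prior, the methods' t-test, other probe set rules, filters at a mean signal of 5 or 6, quantile, cyclic loess and median scaling, array weights, the replicate block and leaving out each array. Leaving out miR-709 arrays C and D was added after seeing the data.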

Additional observations from a re-analysis of the deposited data

Results flagged for a closer look

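Among 26 genes checked, 4 had a miR-709 array far from the other 3 (Dixon's test at the 95% level), and chance alone flags about 1 in 20 groups. *Taok3* was high on replicate A, at 7.73. *Ppp2r1a* was low on replicate C, at 10.92, where the other 3 arrays read 10.96. *Tead1* was high on replicate D, at 9.49, where the other 3 read 9.44. *Wtip* was low on replicate C, at 5.90. None of the 9 Hippo genes was among them.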

How the results depend on the processing

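Over 20 alternatives *Ajuba* was past the threshold in 20 (log2 fold change -1.01 to -0.93), *Mob3a* in 19 (-1.10 to -0.85) and *Lats2* in 18 (0.48 to 0.57), and the other 6 Hippo genes in none. All alternatives reuse the same arrays, and some, such as the signal filters, leave the log2 fold change of a member as it was. The members were picked with their values known, so these counts describe the processing and are no support for the changes. *Stk4* was -0.05 after quantile normalization or cyclic loess. No scaling moved the median of all genes by 0.1. The methods' t-test, with the adjustment added here, called 113 lower and 113 higher genes of all. It called 1 lower (*Ajuba*) and 0 higher of the Hippo genes. Of the 5 pathway lists it called 1 higher, and of the YAP and TAZ targets 0 lower and 0 higher. The paper counted genes by p-value and names no adjustment, so its counts are larger and not comparable. It lists *Mob3a*, under the older symbol *Mobkl2a*, among the lowered genes. At a mean signal of at least 6, 555 genes of all were higher and 4 targets lower (*Ankrd1*, *Ccn1*, *Ccn2* and *Igfbp3*). With miR-709 arrays A and B only, counts were 92 lower and 76 higher of all genes, 0 higher of the Hippo genes, 0 lower and 0 higher of the pathway lists, and 0 lower and 1 higher of the targets. Leaving out 1 array gave 181 to 244 lower and 180 to 294 higher genes of all, 0 to 2 higher of the pathway lists and 1 to 2 lower targets, with the fewest of all genes without Cel-239b replicate C. *Strn*, of the STRIPAK list, was higher without Cel-239b replicate B (0.35, adjusted p = 0.0434 in limma). *Frmd6*, of the upstream inputs, was higher without Cel-239b replicate D (0.57, adjusted p = 0.0284 in limma). With all arrays *Frmd6* was at 0.40 and not past the threshold (adjusted p = 0.167 in limma). The Hippo counts did not move.

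The deviations of same-letter arrays B, C and D were hardly correlated (0.019, 0.017 and 0.046). Such values cannot show whether these arrays share a mouse or an isolation. With the letter as a fixed replicate block, 221 genes of all were lower and 180 higher, 0 pathway genes were higher and 1 target was lower (*Ankrd1*). The block left *Rassf3* at an adjusted p = 0.0502, and the 1 pathway gene that was lower was *Fblim1* (log2 fold change -0.41, adjusted p = 0.0496), while the Hippo counts stayed at 2 lower and 1 higher. As a random replicate block, 294 genes were lower and 365 higher.

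With 7 arrays the median standard error of a gene was 0.0758 on the log2 scale, and the values are rounded to 0.01. Differences of the size of those of *Yap1* (-0.15), *Sav1* (-0.13) and *Mob1b* (0.11) can be missed at the threshold with this precision. The larger change of *Ccn2* (-0.32, standard error 0.09) also missed it (adjusted p = 0.105 in limma). The array reads mRNA only, and neither protein nor phosphorylation of the pathway was measured here.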
